A study of Mus musculus with 12 samples.

Results

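The 10 early B-lineage genes described here were followed in sorted bone marrow hematopoietic stem cells (HSCs) of mice with and without *Ythdc1*, the gene of a nuclear reader of m6A on RNA. The 10 genes are *Dntt*, *Rag1*, *Il7r*, *Ebf1*, *Pax5*, *Pou2af1*, *Vpreb1*, *Cd79a*, *Cd79b* and *Blnk*, taken by name as B-lineage and lymphoid progenitor genes and found in the count table by their Ensembl identifiers. All 10 are among the 55335 genes of the table, and all 10 passed the filter on low counts that left 18234 genes to test. The knockout, *Ythdc1*Δ/Δ (KO), was *Ythdc1* fl/fl with Mx1-Cre, and the wild type, *Ythdc1*+/+ (WT), also carried Mx1-Cre, so that both genotypes had the recombinase and both received pIpC. The labels give the strain as C57B6 and the study's methods as C57BL/6, with donors 8 weeks old. Mx1-Cre is driven by an interferon-inducible promoter and acts in many cell types besides HSCs, B-lineage cells of the marrow among them. Each genotype had 6 libraries of polyadenylated RNA, and their titles carry 3 numbers with 2 libraries each. The 2 libraries of a number were summed to 1 sample, giving KO176, KO177 and KO209 against WT178, WT180 and WT207. Nothing in the labels ties a number to a mouse. The p-values given here therefore reflect how far these samples differ from each other, and that spread may be technical.

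B cell development begins in lymphoid-primed progenitors, in which interleukin-7 receptor signalling and the transcription factor EBF1 turn on the B-lineage program and PAX5 then fixes it. The recombinase and terminal transferase assemble and diversify the immunoglobulin heavy chain gene, and the new heavy chain is displayed with the surrogate light chain and the CD79A–CD79B signalling pair as the pre-B cell receptor, from which the adaptor BLNK passes the signal on. Transcripts of some of these genes occur at low levels in multipotent cells before commitment, which is known as lymphoid priming. In bulk RNA, a different number of B-lineage cells and a different amount of RNA per cell cannot be told apart.

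Libraries held 20809936 to 24563170 counts assigned to genes, and summed samples 42098649 to 48095239. Levels are given as CPM, that is counts scaled to 1 common library total after TMM normalisation. *Ythdc1* itself was at 65.3 ± 7.37 CPM in KO and 80.4 ± 10.7 CPM in WT (SD, n = 3 samples each), but its counts cover all its exons and so do not check the deletion. The 12 HSC markers looked at were all detected, among them *Kit* (206.7 CPM in KO, 249.96 CPM in WT) and *Slamf1*, which encodes CD150 (7.40 and 9.32 CPM). *Cd48* (363 and 297 CPM) and *Flt3* (428 and 363 CPM), which HSC gates commonly use as negative markers, were detected at higher levels than *Slamf1*.

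The 10 genes covered a wide range of levels once exon length was taken into account. In WT HSCs, *Dntt* was the highest, at 89.1 ± 12.5 CPM per kilobase of exon (SD, n = 3), above 95.6% of the tested genes. *Cd79b* followed at 70.7 ± 5.47 CPM per kilobase, above 94.2% of genes. *Vpreb1* (5.09 ± 0.752) and *Cd79a* (5.05 ± 0.437) were next, in the same unit, and lay within each other's spread. Below them came *Il7r* (0.917 ± 0.335) and *Blnk* (0.789 ± 0.0996), the mean of *Blnk* lying within the spread of *Il7r*. *Pou2af1* (0.382 ± 0.0707), *Ebf1* (0.130), *Rag1* (0.0693) and *Pax5* (0.0245 CPM per kilobase) were lowest, *Pou2af1* being above 22.6% of the tested genes and *Pax5* above 0.9% of them. The order of the mean levels in KO was *Dntt*, *Cd79b*, *Cd79a*, *Vpreb1*, *Il7r*, *Blnk*, *Pou2af1*, *Ebf1*, *Rag1* and *Pax5*, so that only *Cd79a* and *Vpreb1* changed places. The pair that encodes the B cell receptor signalling subunits was therefore present in unequal amounts, with *Cd79b* far above *Cd79a* in either genotype.

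**Figure D1:**
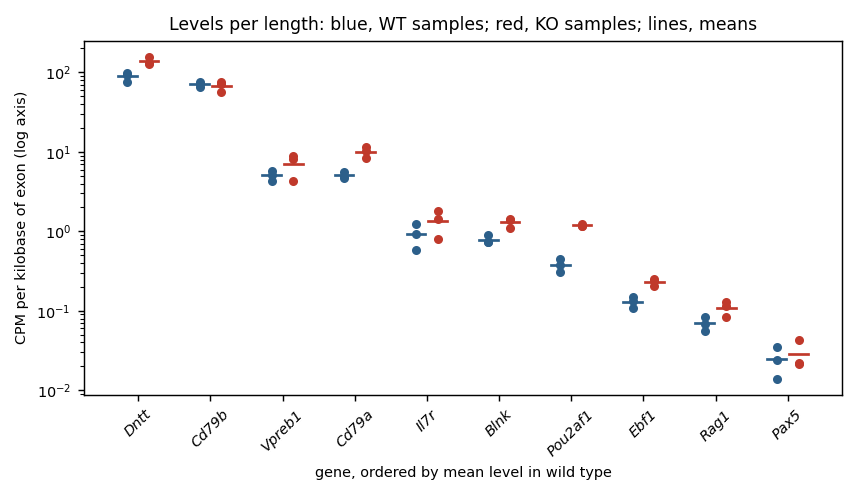
Level of each gene in CPM per kilobase of exon, on a log axis, in the 3 WT samples (blue) and the 3 KO samples (red), with lines at the means. *Dntt* (WT mean 89.1) and *Cd79b* (70.7) lie far above the other genes and *Pax5* (0.0245) lowest, and the KO and WT points separate for *Dntt*, *Cd79a*, *Blnk*, *Pou2af1* and *Ebf1*.

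In the comparison of KO with WT, which asks how loss of *Ythdc1* alters transcript levels in HSCs, *Pou2af1* was the only one of the 10 genes that passed the test over all genes (edgeR's quasi-likelihood test, Benjamini-Hochberg adjusted p under 0.05), against 0.137% of all tested genes. Of the 10 genes, 9 had a positive log2 fold change and 1, *Cd79b*, a negative one. *Pou2af1*, *Cd79a*, *Dntt*, *Blnk* and *Ebf1* were higher at an unadjusted p under 0.05, a share of 5 in 10 where 4.28% of all genes were higher at that level, and none of the 10 was lower, where 5.2% of all genes were. In these same 5 genes every KO sample lay above every WT sample, where 7.75% of all genes did so. In none did every KO sample lie below every WT sample, where 8.59% of all genes did. The median log2 fold change of the 10 genes was 0.65, and that of all tested genes was -0.01.

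**Figure D2:**
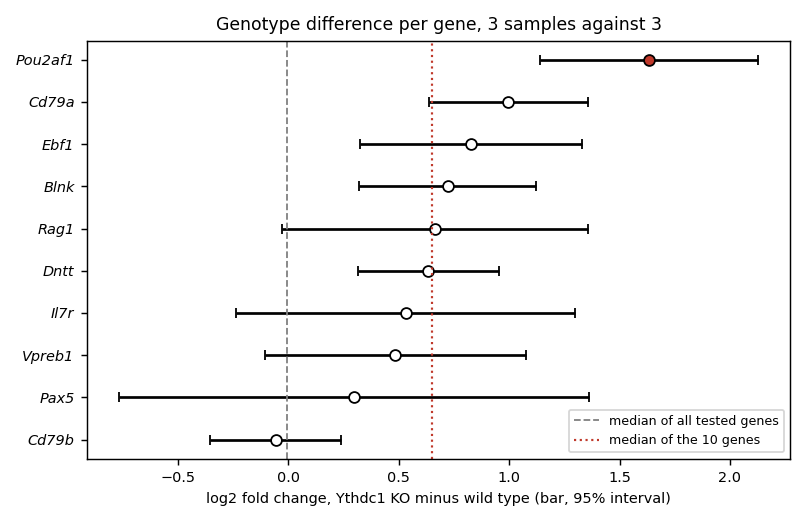
Log2 fold change of each gene, KO minus WT, with its 95% interval from edgeR's quasi-likelihood fit of 3 samples against 3; the filled point is the gene past the adjusted threshold. *Pou2af1* (1.63) stands highest, the intervals of *Cd79a*, *Ebf1*, *Blnk* and *Dntt* lie above 0, and those of the other 5 genes include 0.

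Among the genes of receptor assembly, *Dntt*, which encodes the terminal deoxynucleotidyl transferase that adds untemplated bases at V(D)J joints, was the most abundant (chromosome 19, 41029275 to 41059525, forward strand; mm10, as are all positions here). It was at 300.4, 360.1 and 289.6 CPM in KO176, KO177 and KO209, and at 172.4, 228 and 212 CPM in WT178, WT180 and WT207. All KO samples were above all WT samples, with KO177 highest and WT178 lowest. The log2 fold change was 0.63 (SE 0.14, 95% interval 0.31 to 0.95; 1.55-fold), with an adjusted p of 0.194 in edgeR's quasi-likelihood test. The 6 KO libraries ranged from 280.5 to 399 CPM and the 6 WT libraries from 168 to 242 CPM, so the groups did not overlap library by library either.

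*Rag1* (chromosome 2, 101638282 to 101649501, reverse strand), a subunit of the V(D)J recombinase, was near the low end of what could be counted. It had 36, 25 and 38 counts in KO176, KO177 and KO209, and 23, 18 and 21 counts in WT178, WT180 and WT207. These are 0.852, 0.549 and 0.768 CPM against 0.552, 0.374 and 0.448 CPM. KO177 lay marginally below WT178, so that the genotypes overlapped. Between genotypes the log2 fold change was 0.66 (SE 0.31, 95% interval -0.03 to 1.36, adjusted p = 0.543 in edgeR's quasi-likelihood test). The 2 libraries of KO209 differed 8.47-fold, more than any difference between samples. Its partner *Rag2*, the other recombinase subunit, was at 7.47 ± 2.82 CPM in KO and 4.22 ± 1.01 CPM in WT (SD, n = 3; adjusted p = 0.429 from edgeR), and the CPM ratio of *Rag2* to *Rag1* was 11.03 ± 6.06 and 9.35 ± 2.44 (exact permutation test, two-sided, p = 0.8).

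*Il7r* (chromosome 15, 9505788 to 9530176, reverse strand) encodes the interleukin-7 receptor α chain, which lymphoid progenitors need for survival and growth. It was at 8.33, 6.73 and 3.72 CPM in KO176, KO177 and KO209, and at 2.69, 5.81 and 4.33 CPM in WT178, WT180 and WT207. KO176 and KO177 were above all WT samples, whereas KO209 was below WT180 and WT207. The log2 fold change of 0.53 (SE 0.34, 95% interval -0.24 to 1.30) had an adjusted p of 0.661 in edgeR's quasi-likelihood test. Samples of 1 genotype differed up to 2.24-fold (KO) and 2.16-fold (WT), more than the 1.11- to 1.51-fold between 2 libraries of a number.

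Among the transcriptional regulators, *Pou2af1* had the largest difference and *Pax5* was close to undetected. *Pou2af1* (chromosome 9, 51213708 to 51240080, forward strand) encodes OCA-B, a B cell coactivator that binds the octamer factors on immunoglobulin promoters and is expressed through to the plasma cell. It was counted 127, 134 and 157 times in KO176, KO177 and KO209, and 33, 47 and 54 times in WT178, WT180 and WT207. In CPM these are 3.01, 2.95 and 3.17 against 0.792, 0.976 and 1.15. The KO samples were close together, and all were well above WT207, the highest WT sample. *Pou2af1* rose 3.12-fold (log2 fold change 1.63, SE 0.22, 95% interval 1.14 to 2.13, adjusted p = 0.0332 in edgeR's quasi-likelihood test). Over libraries the ranges were 2.30 to 3.65 CPM in KO and 0.667 to 1.501 CPM in WT.

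The call on *Pou2af1* was kept without KO176 (adjusted p = 0.0409) or KO209 (0.0282) and lost without any other sample, in edgeR's quasi-likelihood test. Without KO177, WT178, WT180 or WT207 its adjusted p in edgeR's quasi-likelihood test was 0.11, 0.265, 0.215 or 0.113, and with a minimum count of 50 it was 0.0589, while its log2 fold change stayed between 1.52 and 1.77 over 16 alternatives. *Cd79a* passed without KO209 (adjusted p = 0.0191 from edgeR) and in 6 other alternatives. In DESeq2, which called 1.14% of all genes, 4 of the 10 genes passed. With the title number as a random block in voomLmFit, which called 0.842% of all genes, 3 passed, and with the 12 libraries as separate samples, where 4.83% of all genes were called, 5 passed.

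*Ebf1* (chromosome 11, 44617317 to 45008091, forward strand), whose product specifies the B lineage, was at 2.32, 2.44 and 1.98 CPM in KO176, KO177 and KO209, and at 1.44, 1.06 and 1.30 CPM in WT178, WT180 and WT207. Every KO sample was above every WT sample, and WT180 was lowest. The log2 fold change was 0.83 (SE 0.23, 95% interval 0.33 to 1.33; 1.77-fold), with an adjusted p of 0.285 in edgeR's quasi-likelihood test. *Pax5* (chromosome 4, 44524757 to 44710487, reverse strand), the factor that holds cells in the B lineage and that acts after EBF1, had 8, 9 and 19 counts in the KO samples and 13, 6 and 10 in the WT samples, in the same order. The 2 genotypes overlapped, with KO209 highest and WT180 lowest. The difference, 0.30 (SE 0.48, 95% interval -0.77 to 1.36, adjusted p = 0.876 in edgeR's quasi-likelihood test), was not detectable at this depth, and 8.6% of the exon bases of *Pax5* are shared with *Gm12462* and *5730488B01Rik*, where unstranded counting cannot tell the genes apart.

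Among the receptor components, *Cd79a* and *Cd79b*, whose products form 1 heterodimer, had unlike values between the genotypes. *Cd79a* (chromosome 7, 24897381 to 24902197, forward strand) was at 15.05, 16.7 and 12.4 CPM in KO176, KO177 and KO209, and at 6.84, 7.16 and 8.07 CPM in WT178, WT180 and WT207. All KO samples were above all WT samples, and KO209 was the lowest of the KO samples. Its log2 fold change was 0.996 (SE 0.16, 95% interval 0.64 to 1.36; 1.998-fold), and the adjusted p in edgeR's quasi-likelihood test, 0.0622, missed the threshold. *Cd79b* (chromosome 11, 106311341 to 106314762, reverse strand) was at 110.0, 101 and 80.8 CPM in the KO samples and at 103, 108 and 92.7 CPM in the WT samples. Here the genotypes overlapped, with KO176 highest and KO209 lowest. Its log2 fold change was -0.06 (SE 0.13, 95% interval -0.36 to 0.24, adjusted p = 0.917 in edgeR's quasi-likelihood test), and its interval does not reach the lower bound of that of *Cd79a*. The CPM ratio of *Cd79a* to *Cd79b* was 0.137, 0.165 and 0.153 in KO and 0.0665, 0.0662 and 0.0870 in WT. The ratios did not overlap, with means of 0.152 ± 0.0143 and 0.0733 ± 0.0119 (exact permutation test, two-sided, p = 0.1, the smallest that 3 samples against 3 allow).

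*Blnk* (chromosome 19, 40928927 to 40994535, reverse strand), the adaptor that links the receptor to its downstream kinases, was at 8.28, 8.57 and 6.61 CPM in KO176, KO177 and KO209, and at 4.37, 5.42 and 4.40 CPM in WT178, WT180 and WT207. All KO samples were above all WT samples. KO exceeded WT by a log2 fold change of 0.72 (SE 0.18, 95% interval 0.32 to 1.12; 1.65-fold), with an adjusted p of 0.268 in edgeR's quasi-likelihood test.

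*Vpreb1* (chromosome 16, 16868403 to 16870843, reverse strand) encodes a chain of the surrogate light chain. It was at 9.80, 10.7 and 5.09 CPM in KO176, KO177 and KO209, and at 6.94, 5.15 and 6.21 CPM in WT178, WT180 and WT207. KO176 and KO177 were the highest samples and KO209 the lowest, so the genotypes overlapped. Between genotypes the log2 fold change was 0.48 (SE 0.27, 95% interval -0.11 to 1.07, adjusted p = 0.606 in edgeR's quasi-likelihood test). The KO samples differed 2.11-fold, whereas the 2 libraries of any number differed at most 1.19-fold. *Vpreb1* has a near-identical paralog, *Vpreb2*, with which it can share reads, and 9.01% of its exon bases overlap *Top3b*, so its level is uncertain. The ratio of *Vpreb1* to *Vpreb2* was 7.62 ± 0.991 in KO and 9.10 ± 1.54 in WT (exact permutation test, two-sided, p = 0.3).

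**Figure D3:**
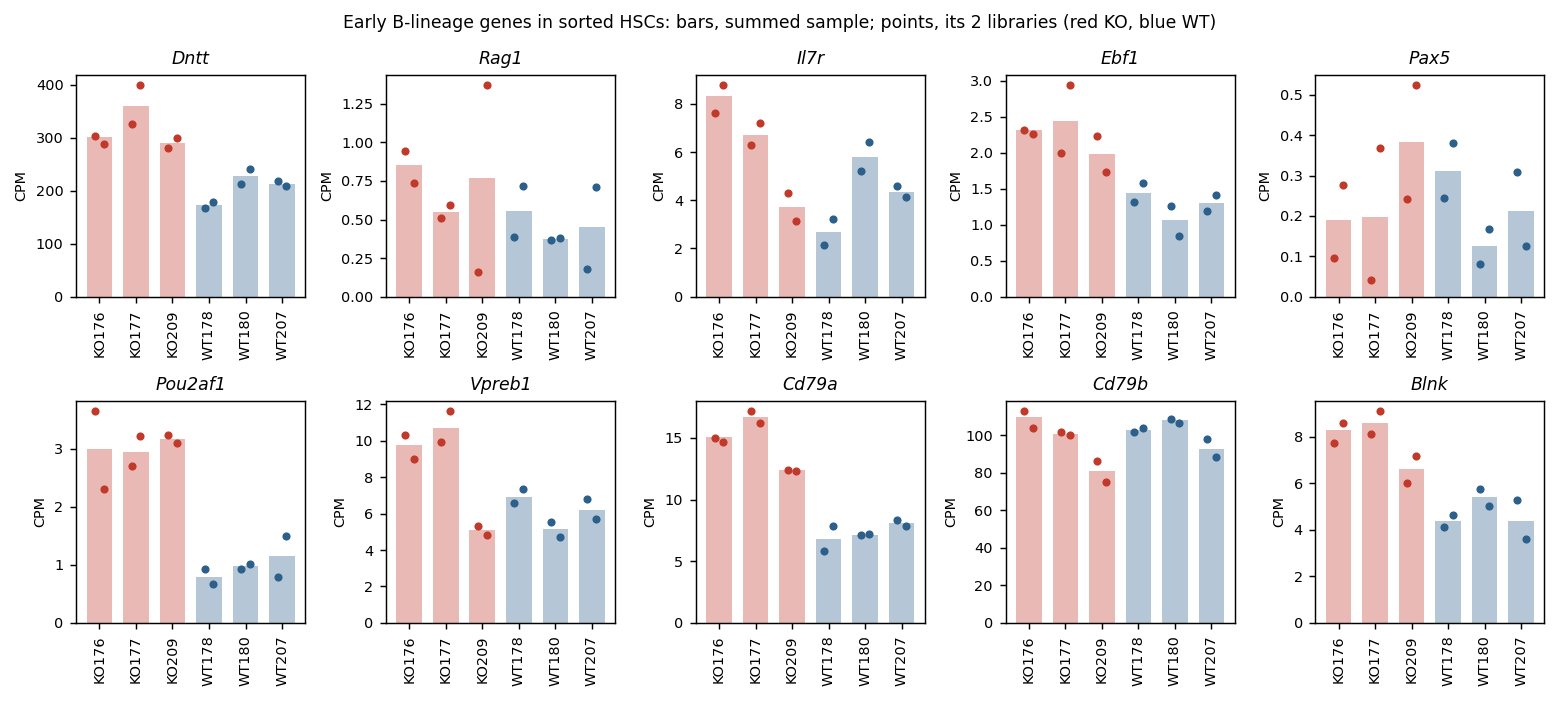
CPM of each gene in the 6 summed samples (bars, KO red and WT blue) and in the 2 libraries of each sample (points); each panel has its own axis from 0. The bars of KO and WT do not overlap for *Dntt*, *Ebf1*, *Pou2af1*, *Cd79a* and *Blnk*, the 2 points of a sample lie far apart for *Rag1* and *Pax5*, and KO209 is the lowest KO sample for *Il7r* (3.72 CPM) and *Vpreb1* (5.09 CPM).

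The promoters of the 10 genes were searched, where one was given, for letters that B-lineage factors are known to bind. RefSeq promoters of GRCm38.p6, the build also called mm10, run from 250 bases before to 50 bases after a start, and 9 of the 10 genes had one, *Cd79b* being the exception. Both strands were searched for the octamer ATGCAAAT, which POU2F1 and POU2F2 bind with the *Pou2af1* product as coactivator, for the E-box CAGGTG of the E proteins and for the EBF1 palindrome TCCCNNGGGA. The octamer was in 1 of these 9 genes, *Blnk*, and in 1.74% of all 32851 promoters. The E-box was in 4, namely *Blnk*, *Cd79a*, *Rag1* and *Vpreb1*, and in 20.2% of all promoters, and the EBF1 palindrome was in none of the 9 and in 0.904% of all. The motifs do not overlap one another in these promoters. A match describes the letters only. Only exact letters were searched, with any base at N, so a site that departs from them was not counted. The *Blnk* promoter (chr19:40994172-40994471, reverse strand) is shown because it holds both an E-box and an octamer, the *Cd79a* promoter (chr7:24897247-24897546, forward strand) because it holds the E-box of the gene next in size to *Pou2af1*, and the *Pou2af1* promoter (chr9:51213440-51213739, forward strand) because the gene it belongs to passed the test and none of the 3 motifs was found there. Each is written 5′ to 3′ on the strand of its gene, with motif letters in capitals; those of *Blnk* are the reverse complements, CACCTG at 160 and ATTTGCAT at 130 bases upstream of the start, and that of *Cd79a* lies 154 bases upstream.
Blnk promoter: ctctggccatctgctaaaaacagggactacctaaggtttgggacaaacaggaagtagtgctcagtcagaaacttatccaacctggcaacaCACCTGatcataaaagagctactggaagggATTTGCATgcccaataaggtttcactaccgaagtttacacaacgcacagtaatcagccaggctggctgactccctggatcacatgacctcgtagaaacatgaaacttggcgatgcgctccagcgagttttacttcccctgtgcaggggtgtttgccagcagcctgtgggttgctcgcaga
Cd79a promoter: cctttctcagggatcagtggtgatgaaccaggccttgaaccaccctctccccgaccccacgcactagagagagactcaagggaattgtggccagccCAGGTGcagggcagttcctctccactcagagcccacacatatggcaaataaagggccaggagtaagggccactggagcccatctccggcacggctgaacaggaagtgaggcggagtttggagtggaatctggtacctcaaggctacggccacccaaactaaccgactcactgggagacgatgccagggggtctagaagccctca
Pou2af1 promoter: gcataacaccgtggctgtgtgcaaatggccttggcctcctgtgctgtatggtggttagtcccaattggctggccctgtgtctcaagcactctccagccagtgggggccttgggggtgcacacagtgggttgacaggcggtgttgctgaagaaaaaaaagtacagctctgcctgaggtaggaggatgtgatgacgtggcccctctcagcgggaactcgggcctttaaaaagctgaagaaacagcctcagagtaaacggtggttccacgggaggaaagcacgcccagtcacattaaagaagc
The other E-boxes, of genes whose genotypes overlapped, are shown with 9 bases on each side, at 135 bases upstream in *Rag1* (chr2:101649653-101649676, reverse strand) and at 88 bases upstream in *Vpreb1* (chr16:16869329-16869352, reverse strand).
Rag1 E-box: ctgaagagcCAGGTGccagctgga
Vpreb1 E-box: acgttccagCAGGTGcttcctccc

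The KO samples did not share 1 order over the 10 genes. KO209 was the lowest KO sample for *Dntt*, *Il7r*, *Ebf1*, *Vpreb1*, *Cd79a*, *Cd79b* and *Blnk*, and the highest for *Pax5* and, narrowly, for *Pou2af1*. Expressed as the median over the 10 genes of log2 CPM relative to each gene's mean, the samples were at 0.468, 0.505 and 0.214 in KO176, KO177 and KO209 and at -0.340, -0.486 and -0.284 in WT178, WT180 and WT207. All KO samples were thus above all WT samples on this median. The numbers in the titles fall into a lower range (KO176, KO177, WT178 and WT180) and an upper one (WT207 and KO209), and the labels do not state what separates them. The median log2 difference of the 10 genes was 0.78 within the lower range (2 KO and 2 WT samples) and 0.59 within the upper (1 and 1), against -0.004 and -0.02 over all genes. *Pou2af1* was higher in KO in both ranges (1.71 and 1.43), as were *Cd79a* (1.17 and 0.61), *Ebf1* (0.92 and 0.59), *Blnk* (0.79 and 0.58) and *Dntt* (0.73 and 0.45). *Vpreb1* (0.77 and -0.28) and *Il7r* (0.91 and -0.22) were higher in KO in the lower range and lower in the upper one, and *Pax5* was the reverse (-0.04 and 0.73), with 1 sample against 1 in the upper range.

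Across the 12 libraries, log2 CPM of the 10 genes followed each other to different degrees, as a description only, since libraries of 1 sample and of 1 genotype share their source. The closest pair was *Cd79a* and *Dntt* (Pearson r = 0.915), followed by *Cd79a* and *Blnk* (0.892), *Blnk* and *Dntt* (0.885) and *Cd79a* and *Pou2af1* (0.878). *Cd79b* was close to none of these, with r of -0.1 to *Cd79a* and -0.316 to *Pou2af1*, and its highest value was 0.482, to *Vpreb1*. Of the other genes with a mean of at least 1 CPM, those most like the mean of the 10 genes, each standardised over the libraries, were *Hnrnpa1* (r = 0.946), *Ighv14-4* (0.943), *Bzw2* (0.931), *Igkv8-28* (0.930) and *Nap1l1* (0.929), and with the genotype means removed these had r of 0.785, 0.82, 0.838, 0.864 and 0.771. Those most like *Pou2af1* were *Ighv1-9* (0.947), *Lepr* (0.946), *Cxcl12* (0.941), *Tpsb2* (0.936) and *Serping1* (0.914), and within genotypes their r was lower, at 0.282, 0.52, 0.578, 0.479 and 0.256. The segments *Ighv14-4*, *Igkv8-28* and *Ighv1-9* were close to undetected in WT (means of 0.0372, 0.008 and 0.0657 CPM) and at 6.91, 10.3 and 13.5 CPM in KO. They reached the mean of 1 CPM through the KO libraries alone, and likeness was taken to values that were higher in KO. Their r over the 12 libraries and this contrast thus follow from how they were picked.

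Other genes of the same pathways gave no call past the adjusted threshold of edgeR's quasi-likelihood test, whereas *Pou2af1* did. Of 17 genes of pre-B and B cell receptor signalling, 13 were higher and 4 lower in KO, and the median log2 fold change was 0.27. At an unadjusted p under 0.05, 5 were higher and none lower, where 4.28% of all genes were higher and 5.2% lower. Among them the surrogate light chain gene *Igll1* was at 8.56 ± 3.03 CPM in KO and 5.12 ± 0.649 CPM in WT (SD, n = 3 each), *Vpreb3* at 4.63 ± 1.45 and 2.29 ± 0.276 CPM, and *Fcrla* at 1.62 ± 0.789 and 0.439 ± 0.146 CPM. KO209 was the lowest KO sample for *Igll1* (5.70 CPM) and *Vpreb3* (3.09 CPM), as it was for *Vpreb1*, and the highest for *Fcrla* (2.49 CPM). Of 18 B-lineage transcription factor genes 15 were higher and 3 lower, with 3 at an unadjusted p under 0.05, all higher, and a median of 0.09. These 3 were *Id3*, an inhibitor of E proteins (2.08 ± 0.0941 and 1.11 ± 0.304 CPM), *Lef1* (0.918 ± 0.168 and 0.480 ± 0.109 CPM) and *Ikzf3*, which encodes Aiolos (2.40 ± 0.329 and 1.24 ± 0.634 CPM). In these 3, picked by their p, every KO sample lay above every WT sample, where 7.75% of all genes did so. In *Sox4* of the same list every KO sample lay below (355 ± 76.0 and 447 ± 16.9 CPM), where 8.59% of all genes did.

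Genes of interleukin-7 receptor signalling, of V(D)J recombination and end joining, and of lymphoid progenitors showed smaller medians than the 10 genes. Of 11 genes of interleukin-7 receptor signalling 4 were higher and 7 lower in KO, none at an unadjusted p under 0.05, with a median of -0.06, beside 0.53 for *Il7r* itself. Of 10 genes of V(D)J recombination and end joining 5 were higher and 5 lower, with a median of 0.00. *Rag2* was the 1 gene at an unadjusted p under 0.05 (log2 fold change 0.82), where 4.28% of all genes were higher at that level. Of 8 lymphoid progenitor genes 7 were higher and 1 lower, none at an unadjusted p under 0.05, with a median of 0.25, beside 0.63 for *Dntt*.

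Markers of other cells were read beside the 10 genes, in a sort whose gate was meant to leave out lineage cells. Per the study's methods, marrow was enriched on CD117 beads before sorting, and lineage cells were defined by CD11b, Gr1, CD4, CD8, Ter119 and B220. The immunoglobulin constant genes, which B-lineage and plasma cells transcribe, had a sum of 4472, 3016 and 6616 CPM in KO176, KO177 and KO209 and of 1066, 1475 and 1604 CPM in WT178, WT180 and WT207. All 10 tested of these 11 genes were higher in KO, with a median log2 fold change of 1.79. Of them 5 were at an unadjusted p under 0.05, where 4.28% of all genes were higher at that level. None passed the adjusted threshold. *Ighm* was at 1874 ± 785 CPM in KO and 667 ± 80.9 CPM in WT, and *Igkc* at 2094 ± 958 and 535 ± 196 CPM. On this sum the 6 samples stood in the same order as on *Pou2af1*, with KO209 highest and WT178 lowest, whereas KO209 was the lowest KO sample for 7 of the 10 genes. The KO samples differed only 1.08-fold on *Pou2af1*, less than the 1.59-fold between the 2 libraries of KO176. The WT samples differed 1.455-fold, less than the 1.89-fold between the 2 libraries of WT207. The order on that gene within either genotype is thus uncertain. The 10 plasma cell markers were all higher in KO, with 2 at an unadjusted p under 0.05 and a median of 0.54. They summed to 613 to 945 CPM in KO and 492 to 567 CPM in WT, again highest in KO209. Most of that sum was *Xbp1* (289 CPM in KO and 275 CPM in WT), *Txndc5* (160 and 137) and *Jchain* (289 and 73.1). *Xbp1* and *Txndc5* were highest in KO176 and differed little between genotypes. Sample by sample, *Jchain* was at 228, 156 and 483 CPM in KO and at 35.3, 91.7 and 92.3 CPM in WT. The 10 mature B cell markers, of which 9 were tested, had 5 higher and 4 lower, with a median of 0.01, and their sum was not higher in KO (203 to 233 CPM against 234 to 246 CPM). Most of that sum was *Cd37* (174 CPM in KO and 185 CPM in WT). Every KO sample lay above every WT sample in *Fcmr* and *Bank1*, as in 7.75% of all genes. In *Ralgps2* and *Tnfrsf13c* every KO sample lay below, as in 8.59% of all genes. *Ms4a1*, which encodes CD20 of mature B cells, was at 0.739 ± 0.215 and 0.627 ± 0.217 CPM. No gene of these lists was at 0 in all samples, and the part of B-lineage or plasma cells in the sort in the differences of the 10 genes was not tested.

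**Figure D4:**
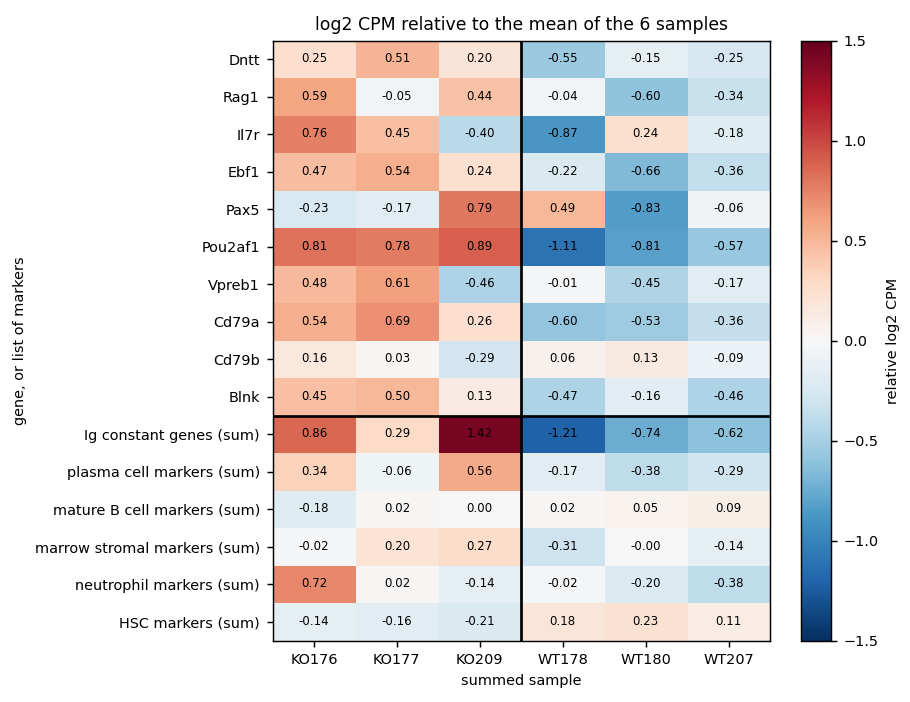
Log2 CPM of each gene, and of the summed CPM of each list of markers, relative to its mean over the 6 samples; the horizontal line separates the 10 genes from the lists and the vertical line KO from WT. KO209 is the highest sample for *Pax5*, the immunoglobulin constant genes (6616 CPM) and the plasma cell markers (945 CPM), and low for *Il7r*, *Vpreb1* and *Cd79b*. On *Pou2af1* the KO samples lie close together.

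Other cell types were also represented. Of 10 marrow stromal markers 9 were higher in KO (median log2 fold change 1.18). Of these, 3 passed the adjusted threshold of edgeR's quasi-likelihood test (*Lepr*, *Adipoq* and *Sparc*), where 0.137% of all genes did. In 7 every KO sample lay above every WT sample, where 7.75% of all genes did so. The 10 markers summed to 80.7 to 98.7 CPM in KO and 65.9 to 81.5 CPM in WT. Most of that sum was *Pdgfrb*, the 1 gene lower in KO (48.6 to 53.9 CPM, and 54.3 to 70.4 CPM in WT). Of 12 HSC markers 11 were lower in KO, with a median of -0.37 and sums of 1226 to 1291 against 1538 to 1664 CPM. Of these, 5 were lower at an unadjusted p under 0.05, where 5.2% of all genes were. All 10 neutrophil markers and all 8 erythroid markers were higher (medians 0.42 and 0.29). In each list 1 gene was at an unadjusted p under 0.05, where 4.28% of all genes were higher at that level. The neutrophil sum was highest in KO176, at 21032 CPM where the other samples had 9839 to 12948. The largest part of that sum was *Mpo*, at 10914 CPM in KO176 and 2064 to 5388 CPM in the other samples. *Mpo* and *Elane* of this list are primary granule genes that myeloid progenitors also express. *Ngp*, *S100a8* and *S100a9* were highest in KO209 and the other genes of the list in KO176. T cell markers (5 of 7 tested higher, median 0.15), NK cell markers (3 of 7, -0.13) and plasmacytoid dendritic cell markers (4 of 6, 0.19) held no gene past an unadjusted p under 0.05. Nor did the surface marker genes *Itgam*, *Ly6g*, *Cd4*, *Cd8a*, *Cd8b1*, *Ptprc* and *Cd48* (5 of 5 tested higher, median 0.29, the *Cd48* value). Of these, *Cd48* is not among the lineage antigens named above, and *Ptprc* was counted as a whole gene, not as B220 alone. This list held no gene for Ter119. The HSC marker sum thus separated KO from WT samples, as *Pou2af1*, *Cd79a*, *Dntt*, *Blnk* and *Ebf1* did, and the part of the cell mixture in the values of the 10 genes was not tested.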

How the data were processed

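The deposited table holds raw counts per gene, which per the file header the authors made with featureCounts 2.0.1 (read pairs summed over the exons of a gene, GENCODE annotation, no strand), on mm10 per the labels. It also holds exon length per gene (unit: bases), used only for levels per kilobase. The study's methods name Hisat2 for mapping reads to mm10, without tying it to this table. Each column was matched to a sample by its name. The 2 libraries of a title number were summed, and 3 KO samples were compared with 3 WT samples in edgeR 4.0.16 (R 4.3.3): filterByExpr (min.count 10, min.total.count 15), TMM scaling, a robust quasi-likelihood fit, and Benjamini-Hochberg adjustment over 18234 genes at 0.05. A log2 fold change is KO minus WT. Ratios used an exact permutation test over samples. Log2 CPM had a prior count of 2: the value per sample is the median over the 10 genes relative to each gene's mean, and likeness was taken to the mean of the 10 standardised genes over the libraries. For r with the genotype means removed, a fixed value was added to CPM in place of the prior count. Symbols came from GENCODE (55154 of 55335 identifiers). The fit was tested on simulated data.

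The genes and lists were chosen with earlier results of these data known. Named from a list were up to 4 of its genes with the smallest p, and for likeness the 5 genes with the highest r; *Rag2*, *Ms4a1*, *Jchain*, *Kit*, *Slamf1*, *Cd48*, *Flt3* and the order of samples were picked with their values seen. The alternatives were RLE and upper-quartile scaling, DESeq2 1.42.0, voomLmFit (limma 3.58.1 and edgeR), no filter, a minimum count of 50, the earlier edgeR method, separate libraries with and without a replicate block, a term for the range of numbers, and leaving out each sample. Counting error and the spread between 3 samples limit the precision of the genes under 1 CPM.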

Additional observations from a re-analysis of the deposited data

How the results depend on the processing

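The median log2 fold change of the 10 genes kept its sign under every alternative run (0.59 to 0.78), and where counted 5 to 7 of them had every KO sample above every WT sample. The number that passed the threshold moved. As reported, 0.137% of all tested genes and 1 of the 10 genes passed. Upper-quartile scaling called 0.0877% of genes, the earlier edgeR method 0.0823%, DESeq2 1.14% (4 of the 10), no filter 0.16% (3), a minimum count of 50 0.0223% (0), voomLmFit with the title number as random block 0.842% (3) and a term for the range of numbers 0.466% (2). The 12 libraries as separate samples gave 4.83% (5), and a replicate block on the library digit gave 4.61% (5). That digit did not pair the samples (correlations of deviations of 0.008 to 0.176), and no number pairs a KO with a WT sample. Leaving out 1 sample gave 0.00523% to 0.432% of genes, with 0 to 2 of the 10 among them. The fewest came without WT178 and the most without KO209. Over those omissions the log2 fold change of *Cd79b* ran from -0.150 to 0.059 and that of *Pax5* from -0.132 to 0.628. Both reversed without KO209 and neither passed. *Pou2af1* passed in 11 of 16 alternatives and *Cd79a* in 7. The cause of these shifts was not tested. At 6 to 19 counts a sample for *Pax5* and 18 to 38 for *Rag1*, depth limited what could be seen.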
